A study of Mus musculus with 20 samples.

Results

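The genes described here are 6 sodium-coupled amino acid carriers of the kidney tubule and 1 partner protein: Slc6a19, Slc6a18, Slc6a20b, Slc1a1, Slc6a6, Slc6a13 and Cltrn. Cltrn is the current symbol of Tmem27, which encodes collectrin. They were taken from a list of names, a part of the SLC6 and SLC1 carrier families chosen with earlier results of these data known. All 7 were found among the 19940 genes of the expression table. All 7 also passed the filter on low values, a normalized read count of 10 or more in at least 5 libraries, which kept 14630 genes for testing. RNA from kidneys of male mice had been read at its 3′ end with an oligo(dT)-primed kit (QuantSeq), and the 20 libraries fell into 4 groups of 5. The groups were Tert+/+ at 7 weeks, G3 Tert-/- at 7 weeks, Tert+/+ at 47 weeks and G3 Tert-/- at 47 weeks, called young and old below. The protein made from Tert is the catalytic subunit of telomerase, and G3 marks the third generation of mice bred without it, in which telomeres are short. The labels name no agent given to any group, and they give no strain, no deleted part of Tert and no separate animal for each library. The p-values below therefore measure the spread between libraries, whatever its source.

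The proximal tubule takes back nearly all filtered amino acids, and many carriers of its brush border do this by coupling an amino acid to the inward flow of sodium. Slc6a19 carries neutral amino acids in the early part of the tubule and is the gene mutated in Hartnup disorder, while Slc6a18 carries glycine and other neutral amino acids further along. Collectrin, a membrane protein without catalytic activity, is needed to bring these carriers to the brush border. Slc1a1 takes up glutamate and aspartate, Slc6a6 takes up taurine, and Slc6a13 takes up GABA and taurine. Slc6a20b belongs to a pair of mouse genes that correspond to the single human carrier gene for proline and related imino acids.

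Genes of the Slc6 family sit beside close relatives in the mouse genome (GRCm38, GENCODE release M21). Slc6a18 (ENSMUSG00000021612.15, chr13:73661752-73678023) and Slc6a19 (ENSMUSG00000021565.16, chr13:73679745-73704865) lie in tandem on the minus strand with 1.72 kb between them. Tert itself (chr13:73626911-73649843, plus strand) is their neighbour, 11.9 kb from Slc6a18 and 29.9 kb from Slc6a19. In the comparisons of genotype, the Tert allele and any other difference in the chromosomal segment inherited with it cannot be told apart. Slc6a20b (ENSMUSG00000025243.15, chr9:123590800-123632565, minus strand) lies next to its paralog Slc6a20a, and Slc6a13 (ENSMUSG00000030108.14, chr6:121300227-121337733, plus strand) next to the betaine carrier gene Slc6a12. Cltrn (ENSMUSG00000015401.12, chrX:164088830-164118860, plus strand) is the only one of the 7 on the X chromosome. Slc1a1 (ENSMUSG00000024935.11, chr19:28835049-28913960) and Slc6a6 (ENSMUSG00000030096.8, chr6:91684053-91759066) are on the plus strand. All 7 genes are annotated as protein-coding.

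**Figure D1:**
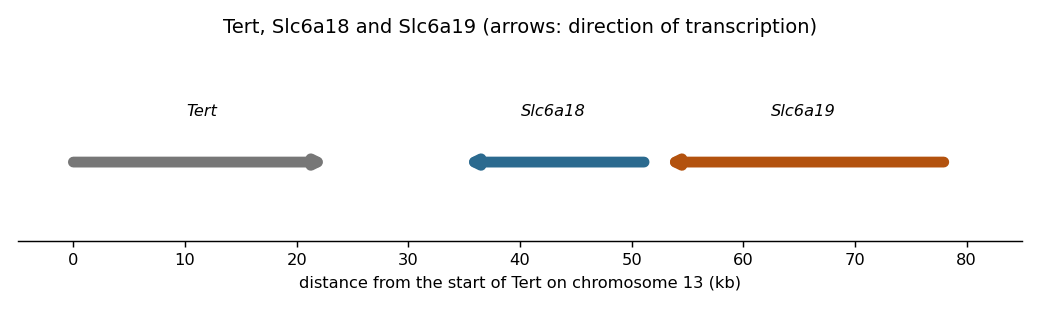
Map of Tert, Slc6a18 and Slc6a19 on chromosome 13, drawn to scale, with the distance from the start of Tert in kb on the x axis and an arrow for each gene's direction of transcription. Slc6a18 and Slc6a19 point towards Tert, with 11.9 kb between Tert and Slc6a18 and 1.72 kb between the carriers.

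Because reads came from transcript ends, close paralogs could share reads. Of the 50-base words in the last 500 bases of the coding transcripts of Slc6a19, Slc6a20b, Cltrn, Slc1a1 and Slc6a6, 0 were found anywhere in the annotated transcripts of other genes. Of the words of Slc6a13 0.443% also occurred in a transcript of Slc6a12, of those of Slc6a18 0.539% occurred at other loci, and of those of the paralog Slc6a20a 11.9% occurred in a Slc6a20b transcript. These last words lay outside the last 500 bases of the coding Slc6a20b transcript. The values of Slc6a20a are uncertain for this reason, and a small part of the reads of Slc6a13 and Slc6a18 could be split.

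Start-site windows of collectrin and of Slc6a19 are shown because the 2 proteins work as a pair. Each window holds 300 bases around a RefSeq start (GRCm38.p6), with 250 bases before it. Both starts lie inside the longer GENCODE span of their gene, downstream of its 5′ end at chrX:164088830 (Cltrn) and chr13:73704865 (Slc6a19). Another Cltrn window, chrX:164091939-164092238, is not shown. The single capital in each marks the start base.
Cltrn, chrX:164089937-164090236, plus strand: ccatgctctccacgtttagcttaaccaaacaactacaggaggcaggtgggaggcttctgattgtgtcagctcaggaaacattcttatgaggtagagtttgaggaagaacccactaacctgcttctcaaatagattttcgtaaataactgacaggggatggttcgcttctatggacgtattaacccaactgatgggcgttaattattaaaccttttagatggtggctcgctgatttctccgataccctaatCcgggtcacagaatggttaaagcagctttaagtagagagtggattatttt
Slc6a19, chr13:73692587-73692886, minus strand: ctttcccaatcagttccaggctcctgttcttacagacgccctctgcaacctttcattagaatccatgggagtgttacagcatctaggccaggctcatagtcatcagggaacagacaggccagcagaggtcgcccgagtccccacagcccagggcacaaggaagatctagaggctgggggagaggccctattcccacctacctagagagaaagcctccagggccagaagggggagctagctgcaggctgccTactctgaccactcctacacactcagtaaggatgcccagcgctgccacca
RefSeq windows were found for 5 of the 7 genes, 8 windows in all. The HNF4 motif CAAAGTCCA and the androgen response element (AGAACA, any 3 bases, TGTTCT) were searched on both strands. They matched 0.475% and 0.00913% of all 32851 mouse windows of this length and 0 of these 8. No match says only that these letters are not in these windows.

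Libraries held 7161690 to 9757594 reads assigned to genes, and 3 reads corresponded to 2.49 to 3.38 normalized counts, far below the level of all 7 genes in every library. Tert was counted at 4.21 to 15.7 in young Tert+/+, 0.979 to 5.65 in young G3 Tert-/-, 7.25 to 16.9 in old Tert+/+ and 5.11 to 8.31 in old G3 Tert-/- libraries, so the genotypes overlapped at both ages. The 3′ tag may lie outside the deleted part, so these values do not check the genotype. All 14 proximal tubule markers were above the filter, and their summed level was 87864 to 125753 over the 20 libraries. Replicate 1 of the young Tert+/+ group and replicate 4 of the old Tert+/+ group stood apart from the other 18 on the first principal component (scores of 43.3 and 33.3 against -23.3 to 12.3). In both of these libraries Slc6a20b was the lowest of its group and Cltrn and Slc6a18 were the highest, so effects on these 3 genes that moved by over 1.5 times without both libraries are also given without them.

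Values below are normalized read counts, and a difference is given as a log2 fold change on the log2(normalized count + 1) scale with its standard error (SE). Reads come from transcript ends and are not divided by transcript length, so levels of different genes are compared as 3′ counts. An adjusted p under 0.05 in limma passed. With age in G3 Tert-/- kidneys, Slc6a19 fell and its neighbour Slc6a18 rose, and these were the only 2 of the 7 genes that passed in this comparison. In it 2.24% of all tested genes passed in either direction, 0.93% as higher and 1.31% as lower. Because the 7 genes were chosen with earlier results of these data known, such shares do not test the 7 as a group. In Tert+/+ kidneys 0 of the 7 genes passed with age, where 0.649% of all genes did. None passed with genotype, where 0.0957% of all genes passed at 47 weeks and 0.0% at 7 weeks. None passed the interaction, which asks whether the genotype effect differs between the ages and in which 0.00684% of all genes passed. Averaged over both ages, a contrast added after the values were seen, 0 of 7 passed with genotype, where 0.0273% of all genes did.

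**Figure D2:**
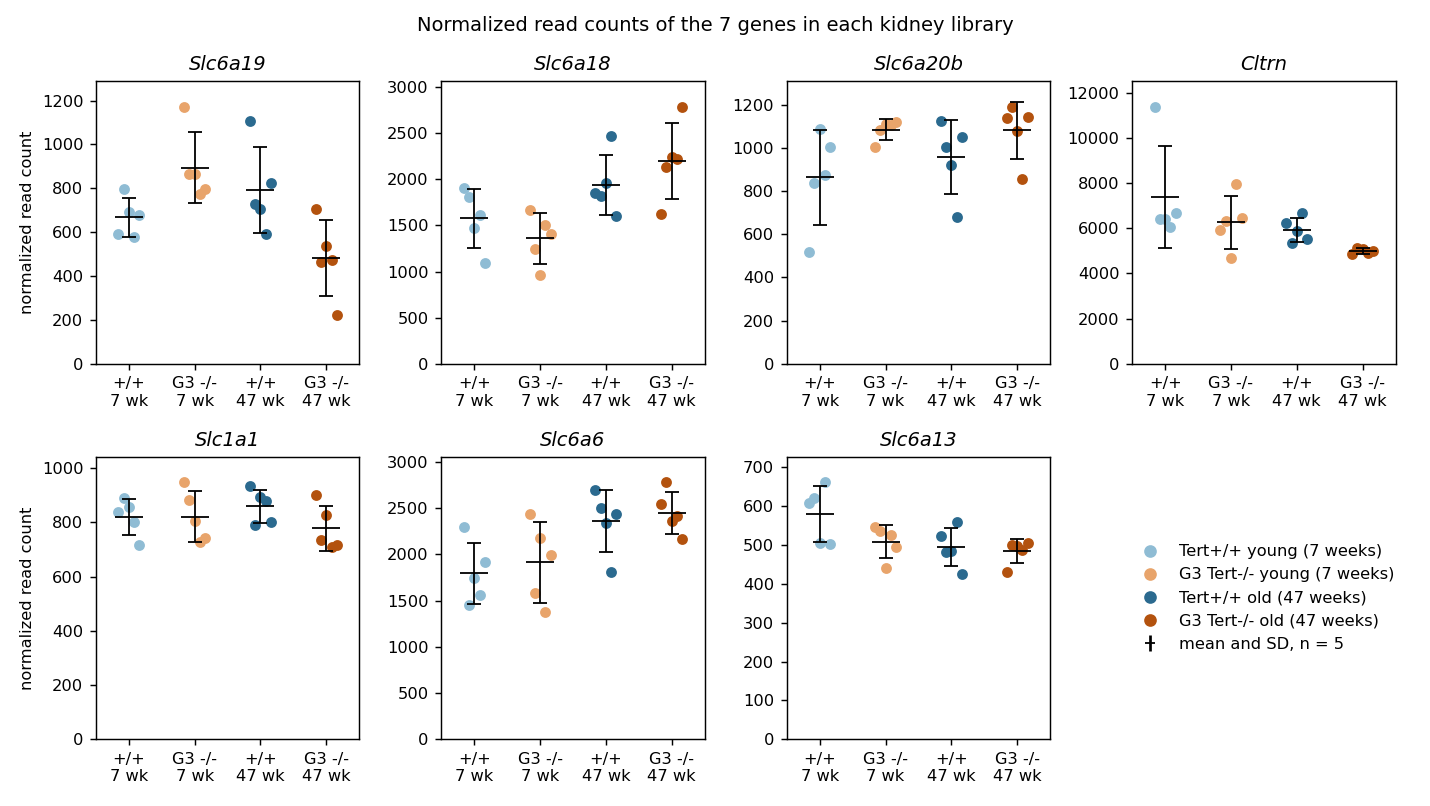
Normalized read count (y axis, from 0) of the 7 genes in each of the 20 libraries by genotype and age (x axis), with the mean and SD over 5 libraries. Slc6a19 was lowest in the old G3 Tert-/- group, where it ran from 222 to 708, and Slc6a18 had its highest mean there.

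Slc6a19, the neutral amino acid carrier of the early tubule, was counted at 592, 798, 689.6, 577 and 678 in young Tert+/+ kidneys and at 1172, 867, 864, 774 and 795 in young G3 Tert-/- kidneys. The old Tert+/+ values were 1109, 728, 705, 592 and 825, and the old G3 Tert-/- values were 708, 466, 538, 474 and 222. Every old G3 Tert-/- library was below every young G3 Tert-/- library, which held for 4.6% of all tested genes, while the old groups of the 2 genotypes overlapped. The group means were 667 ± 88.6 (SD, n = 5) in young Tert+/+, 894 ± 160.4 in young G3 Tert-/-, 792 ± 196 in old Tert+/+ and, lowest of the 4, 482 ± 175 in old G3 Tert-/- kidneys.

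With age Slc6a19 fell by 0.97 on the log2 scale in G3 Tert-/- kidneys (SE 0.21, 95% confidence interval -1.41 to -0.53, limma adjusted p = 0.0149). In Tert+/+ kidneys its log2 fold change with age was 0.22 (SE 0.21, adjusted p = 0.760). Between genotypes its log2 fold change was 0.42 at 7 weeks (adjusted p = 0.482) and -0.78 at 47 weeks (95% confidence interval -1.22 to -0.33, adjusted p = 0.289). The difference between these genotype effects was -1.19 (95% confidence interval -1.82 to -0.57), with an unadjusted p of 0.000661 and an adjusted p of 0.527. The effects of age in the 2 genotypes were thus not shown to differ once all tested genes were taken into account. Without replicate 1 of the young G3 Tert-/- group, the highest library, the age effect in G3 Tert-/- kidneys was -0.87 and no longer passed (adjusted p = 0.0532). With limma's array weights, which give libraries that deviate less influence, the genotype effect at 47 weeks was -0.86 and passed (adjusted p = 0.0216).

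Slc6a18, the glycine and neutral amino acid carrier encoded next to it, was counted at 1907, 1805, 1474, 1615 and 1088 in young Tert+/+ kidneys and at 1672, 1249, 957, 1508 and 1409.5 in young G3 Tert-/- kidneys. Old Tert+/+ libraries gave 1852, 1815, 1964, 2469.6 and 1606, and old G3 Tert-/- libraries gave 1621, 2129.5, 2244, 2218 and 2788. Old libraries were mostly above young ones in both genotypes, but the groups overlapped: the lowest old G3 Tert-/- library (1621) was under the highest young one (1672). The group means were 1578 ± 321, 1359 ± 272, 1941 ± 323 and 2200.1 ± 414 in the same order of groups (SD, n = 5).

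Slc6a18 rose with age in G3 Tert-/- kidneys by a log2 fold change of 0.70 (SE 0.17, 95% confidence interval 0.36 to 1.04, limma adjusted p = 0.0243). In Tert+/+ kidneys its log2 fold change with age was 0.31 (SE 0.17, adjusted p = 0.517), and the difference between the 2 age effects was 0.39 (95% confidence interval -0.10 to 0.87, adjusted p = 0.822). Between genotypes the log2 fold change was -0.21 at 7 weeks (adjusted p = 0.612) and 0.17 at 47 weeks (adjusted p = 0.888), and -0.14 and 0.26 without the 2 libraries that stood apart (adjusted p = 0.823 and 0.786). Averaged over both genotypes, a contrast added after the values were seen, the age effect was 0.50 (SE 0.12, adjusted p = 0.0125, with 4.49% of all genes passing in either direction and 2.06% as higher). The call in G3 Tert-/- kidneys was lost on leaving out any 1 of 6 libraries: replicates 2, 3, 4 or 5 of the old group (adjusted p = 0.0519, 0.0520, 0.0603 and 0.0863) or replicates 2 or 3 of the young group (0.0676 and 0.0700). Over all 20 fits that left out 1 library, its log2 fold change was 0.58 to 0.80.

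**Figure D3:**
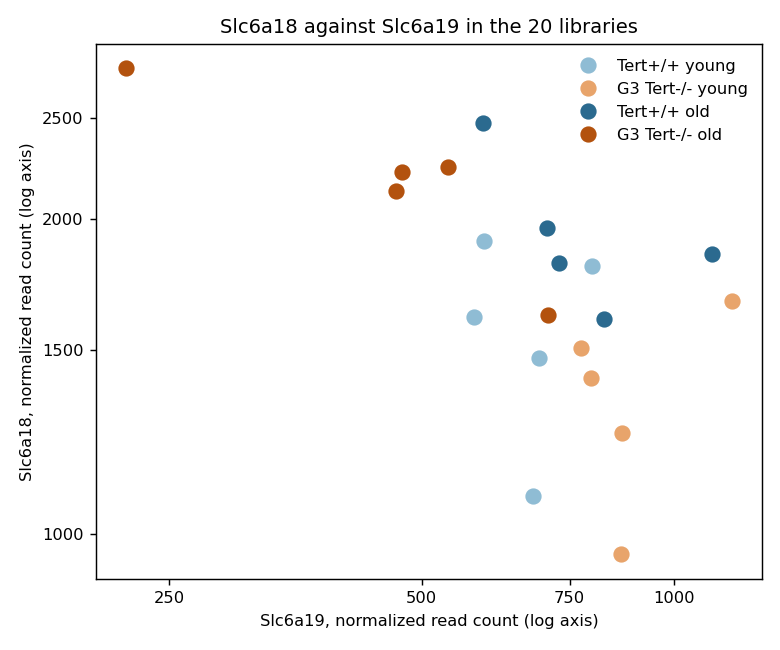
Normalized read count of Slc6a18 (y axis, log scale) against Slc6a19 (x axis, log scale), 1 point for each of the 20 libraries, coloured by group. Old G3 Tert-/- libraries lie to the upper left and young G3 Tert-/- libraries to the lower right, with the lowest Slc6a19 (222) and the highest Slc6a18 (2788) in the same library.

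The 2 neighbours can be compared within each library by the ratio of their normalized counts, described here without a test because it was added after the values were seen. Slc6a18 was 1.60 to 3.22 times as high as Slc6a19 in young Tert+/+ libraries, 1.11 to 1.95 times in young G3 Tert-/- libraries and 1.67 to 4.17 times in old Tert+/+ libraries. In old G3 Tert-/- libraries the ratio was 2.29, 4.57, 4.17, 4.68 and 12.5, above every young G3 Tert-/- library. The last of these is the library with the lowest Slc6a19 of all 20. Across the 20 libraries, which include all 4 groups, the log2 values of the 2 genes had a Pearson correlation of -0.60, also without the 2 libraries that stood apart.

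Some markers of the proximal tubule also passed in the age comparison in G3 Tert-/- kidneys. Of the 14 general markers, 2 fell (Keg1 and Slc22a6, an organic anion carrier) and 0 rose, where 2.24% of all tested genes passed. Of their log2 fold changes 6 of 14 were above 0, with a median of -0.15 and 7 at an unadjusted p under 0.05. With age in Tert+/+ kidneys 0 of these 14 passed in limma, edgeR or DESeq2, and 5 had an unadjusted p under 0.05. There 4 of 14 were above 0 and the median was -0.16. In G3 Tert-/- kidneys 1 of 6 markers of the first proximal tubule segment fell with age (Slc5a2, the glucose carrier) and 0 rose. The median log2 fold change of these 6 was -0.30. Their summed level was 41001 to 51281 in young and 35168 to 43905 in old G3 Tert-/- libraries. In old Tert+/+ libraries, where Slc6a19 did not pass, the summed level was 36138 to 45609 against 45746 to 60199 in young ones, with a median of -0.28 and 0 of 6 passing in limma (2 at an unadjusted p under 0.05, 0 in edgeR and DESeq2). Of 8 markers of the third segment, 2 fell (Atp11a and Slc22a7) and 0 rose in G3 Tert-/- kidneys, with a median of -0.39, while Slc6a18 rose. With age in Tert+/+ kidneys 0 of these 8 passed in limma (3 at an unadjusted p under 0.05, and Slc22a7 alone in edgeR and DESeq2), 5 of 8 were above 0 and the median was 0.03. Their sums were 15863 to 21521 in young and 15731 to 19102 in old G3 Tert-/- libraries, and no marker of either list was at 0 in all libraries. With genotype at 47 weeks 0 of the 8 third-segment markers passed in limma and edgeR and 2 in DESeq2 (Atp11a and Slc22a7). There 1 of 8 was above 0, with a median of -0.27 and 3 at an unadjusted p under 0.05. In the interaction 0 of 8 passed in limma, edgeR or DESeq2 and 0 were above 0, with a median of -0.45 and 3 unadjusted. For the 6 first-segment markers the medians were 0.01 and 0.12 in the same comparisons. In whole kidney, fewer cells of a segment and less RNA per cell cannot be told apart, and the part of these shifts in the carriers' values was not tested.

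Collectrin, the partner of both carriers, had the highest level of the 7 genes in every group. Cltrn was counted at 11386, 6423, 6424, 6047 and 6661 in young Tert+/+ kidneys and at 5933, 6331, 4683, 7956 and 6459 in young G3 Tert-/- kidneys. Its old Tert+/+ values were 6223, 5368, 5899.5, 6693 and 5526, and its old G3 Tert-/- values were 4857, 5126, 5104, 4908 and 4986. At 47 weeks the genotypes did not overlap, as for 2.31% of all tested genes, and the old G3 Tert-/- libraries lay close together (4996 ± 118 against 5942 ± 535 in old Tert+/+, SD, n = 5). The log2 fold change between genotypes was -0.25 at 47 weeks (SE 0.15, limma adjusted p = 0.819), which did not pass. At 7 weeks it was -0.21 (adjusted p = 0.568), and the age effect was -0.28 for Tert+/+ (adjusted p = 0.519) and -0.31 for G3 Tert-/- (adjusted p = 0.327). The interaction was -0.03 (95% confidence interval -0.46 to 0.40). Without the 2 libraries that stood apart, the effect was -0.0463 with genotype at 7 weeks (adjusted p = 0.919), -0.20 at 47 weeks (adjusted p = 0.751), -0.15 with age in Tert+/+ (adjusted p = 0.656) and -0.16 in the interaction (adjusted p = 0.810). Leaving out only replicate 1 of the young Tert+/+ group, the library at 11386, gave -0.0463 with genotype at 7 weeks and -0.11 with age in Tert+/+ kidneys. Averaged over both genotypes, the contrast added after the values were seen, the age effect of Cltrn was -0.29 (SE 0.10, adjusted p = 0.120). It passed with array weights (-0.22, adjusted p = 0.0381) and not without both libraries (-0.23, adjusted p = 0.0763).

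Slc6a20b was counted at 516 to 1089 in young Tert+/+ kidneys, with a median of 874, and at 1004 to 1121 in young G3 Tert-/- kidneys, with a median of 1104. Among old libraries it ranged from 679 to 1124 for Tert+/+ (median 1005) and from 856 to 1190.1 for G3 Tert-/- (median 1139). All groups overlapped, and the 2 libraries that stood apart gave the lowest value of each Tert+/+ group. At 7 weeks the log2 fold change between genotypes was 0.37 (SE 0.16, adjusted p = 0.451) and 0.20 without these libraries, and at 47 weeks it was 0.19 (adjusted p = 0.877) and 0.07 without them. The age effect was 0.17 for Tert+/+ and -0.01 for G3 Tert-/- (adjusted p = 0.755 and 0.982), and without these libraries it was 0.11 for Tert+/+. Its paralog Slc6a20a was far lower, with group means of 43.5 to 60.4 normalized counts, and did not pass in any of the 5 comparisons.

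Slc1a1, the glutamate and aspartate carrier, did not pass in any comparison. It was counted at 715 to 889 in young Tert+/+, 726 to 947 in young G3 Tert-/-, 790.1 to 933 in old Tert+/+ and then 708 to 900.0 in old G3 Tert-/- libraries, with means of 820.4, 819.6, 858 and 777. The groups overlapped throughout. Its log2 fold changes were -0.15 and 0.00 with genotype at 47 and 7 weeks and 0.07 and -0.08 with age in Tert+/+ and G3 Tert-/- kidneys. The 95% confidence intervals of these 4 effects ran from -0.35 at the lowest to 0.27 at the highest.

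Slc6a6, the taurine carrier, did not pass with age in either genotype alone. It was counted at 2295, 1457, 1748, 1559 and 1918 in young Tert+/+ kidneys and at 2438, 1580.4, 2181, 1373 and 1997 in young G3 Tert-/- kidneys. Old Tert+/+ libraries had 2697, 2502, 2338, 1809 and 2440.3, and old G3 Tert-/- libraries had 2546, 2777, 2356, 2409 and 2166. Young libraries ranged widely and overlapped with old ones in both genotypes, and all old libraries but 1 were above the median of either young group. The log2 fold change with age was 0.40 for Tert+/+ (SE 0.15, limma adjusted p = 0.300) and 0.38 for G3 Tert-/- (SE 0.15, adjusted p = 0.205), and the difference between these age effects was -0.02 (95% confidence interval -0.45 to 0.42). Averaged over both genotypes, the contrast added after the values were seen, it was 0.39 (SE 0.10, 95% confidence interval 0.17 to 0.61, adjusted p = 0.0310). That call was lost in 10 of the 20 fits that left out 1 library. With array weights, and without the 2 libraries that stood apart, the age effect in Tert+/+ kidneys passed (0.55, adjusted p = 0.0104, and 0.58, adjusted p = 0.0416), and the difference between the genotypes' age effects was then -0.23 and -0.20 (adjusted p = 0.605 and 0.792). Between genotypes Slc6a6 differed by 0.08 at 7 weeks and 0.06 at 47 weeks on the log2 scale.

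Slc6a13, the GABA and taurine carrier, was lowest of the 7 genes in all groups but the old G3 Tert-/- group, where it and Slc6a19 had means of 483 and 482. It was counted at 502 to 660 in young Tert+/+, 439 to 545 in young G3 Tert-/-, 425 to 557 in old Tert+/+ and then 431 to 503 in old G3 Tert-/- libraries. Its log2 fold change with age was -0.22 for Tert+/+ (SE 0.10, adjusted p = 0.418) and -0.07 for G3 Tert-/- (adjusted p = 0.812), and with genotype it was -0.18 at 7 weeks and -0.03 at 47 weeks. None of these passed. Slc6a13 is also made in liver, and the summed level of 8 hepatocyte markers was highest, at 2597, in replicate 4 of the old Tert+/+ group. This was 1 of the 2 libraries that stood apart, and Slc6a13 was highest of its group there at 557. The sum was 840.1 to 1023 in the other 4 libraries of that group. In young Tert+/+ kidneys the highest sum (1818) and the highest Slc6a13 (660) were also in the same library. In neither G3 Tert-/- group were they in the same library. The library with the highest sum (2133 young, 1206 old) had Slc6a13 at 536 and 495, below the highest values of 545 and 503. None of the 8 markers was at 0 in all 20 libraries, and their part in the value of Slc6a13 was not tested.

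**Figure D4:**
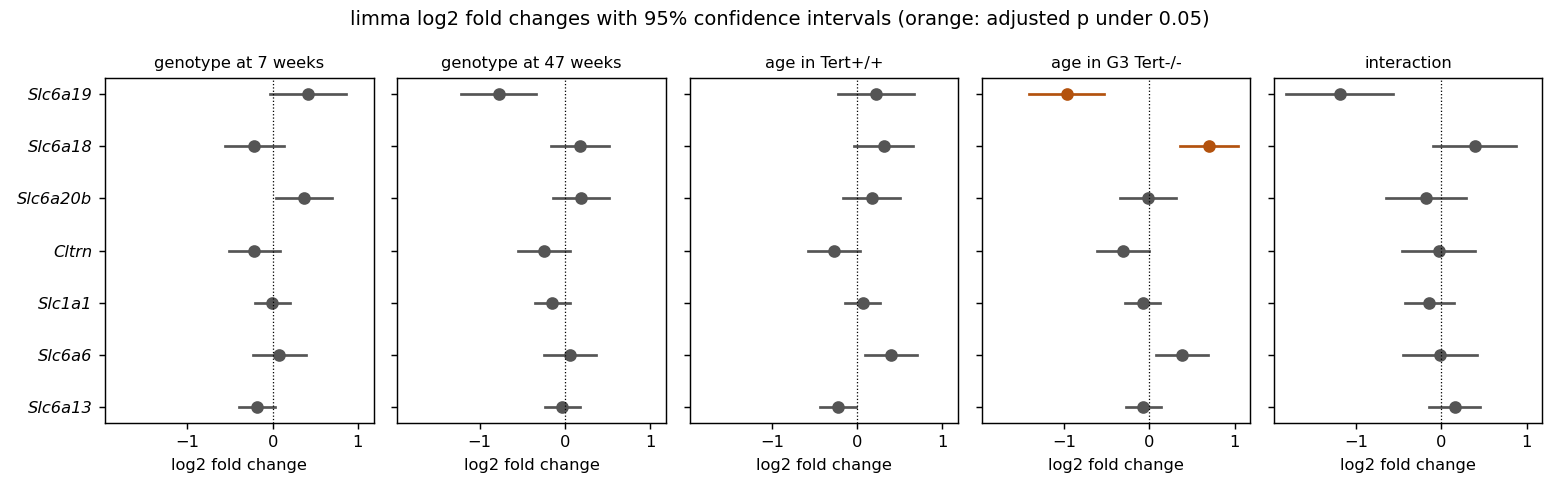
limma log2 fold changes (x axis) of the 7 genes with 95% confidence intervals in the 5 comparisons, 1 panel each. Points with an adjusted p under 0.05 are orange: Slc6a19 (-0.97) and Slc6a18 (0.70) with age in G3 Tert-/- kidneys.

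Read as a group, the 7 genes did not move one way. With age in G3 Tert-/- kidneys 2 of 7 log2 fold changes were above 0 and their median was -0.07, beside 0.00 over all 14630 tested genes. With age in Tert+/+ kidneys 5 of 7 were above 0, with a median of 0.17. With genotype 3 of 7 were above 0 at either age, with medians of 0.00 at 7 weeks and -0.03 at 47 weeks. At an unadjusted p under 0.05 in limma the counts were 1, 1, 2, 4 and 1 of 7 for genotype at 47 weeks, genotype at 7 weeks, age in Tert+/+, age in G3 Tert-/- and the interaction. Over all tested genes the shares under that unadjusted p were 6.58%, 10.7%, 10.6%, 14.9% and 6.22%. On recovered reads, edgeR and DESeq2 each passed the same 2 genes, Slc6a19 and Slc6a18, with age in G3 Tert-/- kidneys and 0 of 7 in the other 4 comparisons. Among all 14630 tested genes edgeR passed 338 and DESeq2 530 in that age comparison, and 0 to 101 and 7 to 211 in the other 4. With age in Tert+/+ kidneys and with genotype at 7 weeks, each of the 7 genes overlapped between its groups, where 2.53% and 1.4% of all tested genes did not. Comparisons of age and of genotype share groups of libraries, so these values are not independent of each other.

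Other genes of amino acid transport were taken from 8 lists. Of their 68 genes the table held 60, and 53 passed the filter. With genotype 0 of 53 passed in limma at 47 weeks (5 at an unadjusted p under 0.05, 1 in edgeR and 2 in DESeq2) and 0 at 7 weeks (7 unadjusted, 0 in edgeR and DESeq2). The 2 in DESeq2 at 47 weeks were Slc7a12 and another SLC6 carrier, Slc6a9 (-0.72 in limma, adjusted p = 0.153). In the interaction 0 passed (2 unadjusted, 0 in edgeR and DESeq2), and with age in Tert+/+ kidneys 1 of 53 passed (5 unadjusted, 1 in edgeR and 2 in DESeq2). With age in G3 Tert-/- kidneys 2.24% of all tested genes passed in limma and 14.9% had an unadjusted p under 0.05. Of the 53 genes 2 rose and 1 fell (15 unadjusted, 3 in edgeR and 5 in DESeq2), and their median was -0.15. The largest of these was in Slc7a12, an apical amino acid exchanger of the kidney, which had means of 4.13 and 6.85 in young Tert+/+ and G3 Tert-/- kidneys and 47.3 ± 25.5 and 152 ± 34.8 in old ones. It rose with age in Tert+/+ (log2 fold change 3.25, adjusted p = 3.26e-05) and in G3 Tert-/- kidneys (4.30, adjusted p = 3.54e-07). Its young means lie close to the floor of 3 reads, and the Tert+/+ age effect was 2.43 to 3.79 over 10 alternatives, all of which passed. At 47 weeks its genotypes did not overlap, as for 2.31% of all tested genes. Its values were 18.02 to 86.7 in Tert+/+ and 114 to 205 in G3 Tert-/- libraries. The log2 fold change of 1.80 did not pass in limma (adjusted p = 0.0729). The genotype effect passed in edgeR (1.67, adjusted p = 0.0136) and in DESeq2 (1.68, adjusted p = 5.74e-05). It also passed with array weights (1.58, adjusted p = 0.0184) and with a pseudocount of 5 (1.70, adjusted p = 0.0125), and not in the other 6 of 10 alternatives. When 1 library was left out, it passed in 3 of 20 fits, with limma adjusted p-values of 0.0303 to 0.301. Slc5a3, the sodium-coupled carrier of the osmolyte myo-inositol, rose from 828 ± 203 to 1653 ± 375 with age in G3 Tert-/- kidneys (1.01, adjusted p = 0.00516). Its log2 fold change with age in Tert+/+ kidneys was 0.35 (limma adjusted p = 0.532), and the interaction was 0.65 (adjusted p = 0.774). With genotype at 7 weeks Slc5a3 had -0.56 (adjusted p = 0.435). Pdzk1, a scaffold protein of the brush border, fell with age in G3 Tert-/- kidneys from 4181 ± 415 to 3205 ± 80.1 (-0.38, adjusted p = 0.0398). That call was lost without the filter (adjusted p = 0.0633) and in 12 of 20 fits that left out 1 library. With age in Tert+/+ kidneys Pdzk1 had -0.32 and did not pass in limma (adjusted p = 0.165). There it passed in DESeq2 (adjusted p = 0.0455) and with array weights (adjusted p = 0.0436). The interaction of Pdzk1 was -0.06 (limma adjusted p = 0.958).

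**Figure D5:**
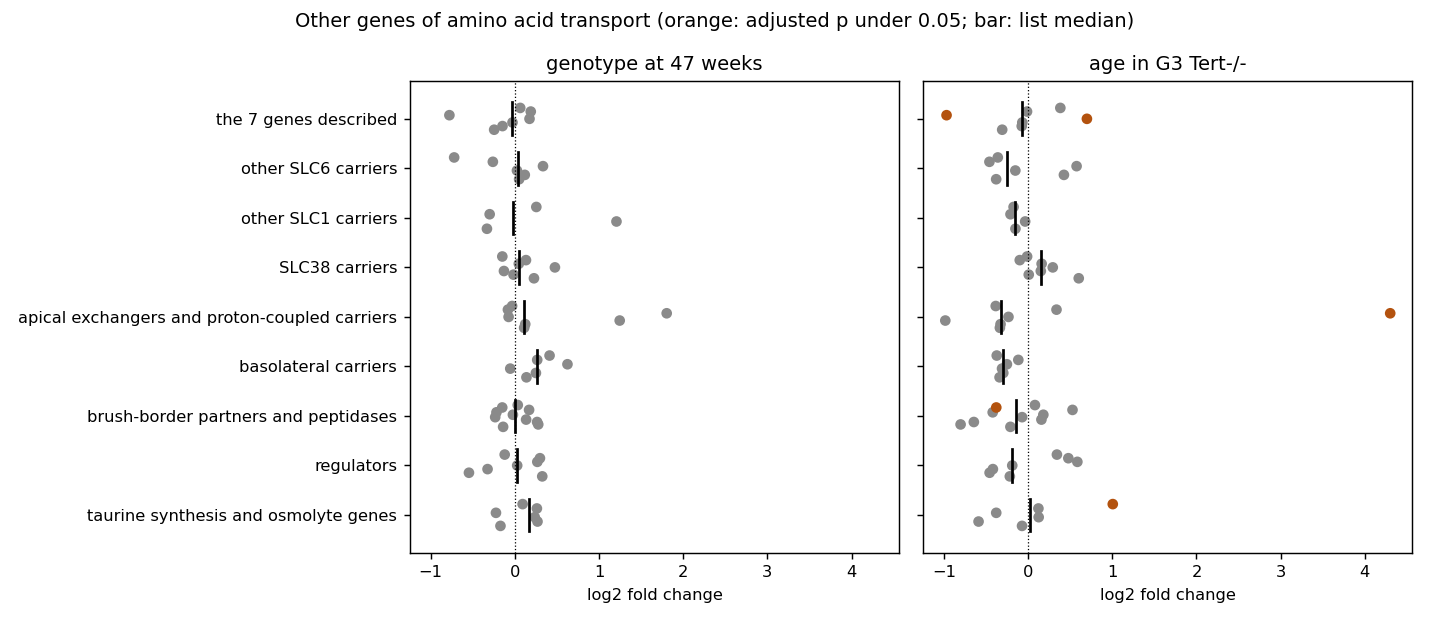
Log2 fold changes (x axis) of the 7 genes and of 8 lists of other amino acid transport genes (rows), with genotype at 47 weeks (left) and with age in G3 Tert-/- kidneys (right). Bars are list medians and orange points have an adjusted p under 0.05: Slc6a19, Slc6a18, Slc7a12, Pdzk1 and Slc5a3, all in the right panel.

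By role, 0 of 6 tested basolateral carriers, 0 of 7 SLC38 carriers, 0 of 4 other SLC1 carriers and 0 of 6 other SLC6 carriers passed in limma with age in G3 Tert-/- kidneys, with medians of -0.30, 0.15, -0.16 and -0.26. At an unadjusted p under 0.05 the counts were 1, 1, 0 and 3, and edgeR and DESeq2 passed 0 in each of these lists. Of 10 brush-border partners and peptidases 1 passed in limma and in edgeR (Pdzk1, which fell) and 2 in DESeq2 (Pdzk1 and Mme). Mme, which encodes the peptidase neprilysin, had a log2 fold change of 0.53 (limma adjusted p = 0.0627). Of 7 transcription factors listed as regulators, 0 passed in limma in any comparison, with 2 at an unadjusted p under 0.05 and 0 in edgeR and 1 in DESeq2 (Nfat5) with age in G3 Tert-/- kidneys. Nfat5, which encodes a regulator of osmolyte carriers, had 0.48 with age in G3 Tert-/- kidneys (adjusted p = 0.0966). Slc6a12 was listed at 0 in some libraries of each group and stayed below the filter.

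The genes most like each carrier were taken as the 3 with the highest Pearson correlation of log2 values over all 20 libraries, among 11043 genes with a mean of at least 20. For Slc6a19 these were Rpain (0.87), Wdr34 (0.82) and Sectm1b (0.81), and for Slc6a18 they were Selenom (0.93), Kng2 (0.89) and Dmgdh (0.89). Slc6a6 was closest to Nampt, Thoc1 and Crim1 (each 0.79 to 0.80), Slc6a13 to Plod1 (0.86), Ogfod2 and Atp5l (each 0.84), and Slc1a1 to Mirt2 (0.76), Zfp512b (0.73) and Ppil6 (0.70). For Cltrn they were Wdr18 (0.96), Ndufb11 (0.94) and Ndufa13 (0.94). For Slc6a20b they were Sephs2 (0.94), Fbxl12 (0.92) and Rpl17 (0.92), which dropped to 0.76, 0.62 and 0.73 without the 2 libraries that stood apart. Without these libraries the 3 closest to Cltrn were Cib1 (0.93), Ass1 (0.92) and Ubb (0.92), and the 3 closest to Slc6a19 were Pdlim2 (0.92), Fam214a (0.89) and March6 (0.88). For Slc6a19, Slc6a20b and Cltrn 0 of the 3 genes were shared between the 2 sets of libraries, for Slc1a1, Slc6a6 and Slc6a13 1 of 3 was, and for Slc6a18 2 of 3 were. These correlations mix the 4 groups and share library-wide variation, so they describe the libraries only.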

How the data were processed

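Kidney RNA of 20 libraries in 4 groups of 5 was compared. The authors deposited a signal for each gene and library: reads divided by 1 size factor per library, as the values themselves show. Dividing each library by its smallest step gave whole reads for 100% of values (relative tolerance 1e-06). Per the submitters' processing notes the build was GRCm38 and the tools named, without roles, were HTSeq 0.6.1, DESeq2, TopHat2 2.0.10, SAMtools 0.1.19, FastQC 0.11.7 and Bowtie 1.0.0. Reads were on the sense strand, per the labels' protocols, which give RNA quality scores of 5.0 to 7.5 but none per library.

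Values were tested as log2(normalized count + 1) with limma 3.58.1 (R 4.3.3, trend), in 1 model of 4 group means over 20 libraries. Tests were two-sided, with Benjamini-Hochberg adjustment over 14630 genes within each comparison. Replicates were numbered in the order listed. edgeR 4.0.16 and DESeq2 1.42.0 on recovered reads, another pseudocount, filter and scaling, array weights and left-out libraries were alternatives. The fit was tested on simulated data. The chi-square per degree of freedom between replicates was 3.88 to 97.7 over 40 pairs, so none was a copy of another. The members, gene lists and named genes (all members, up to 4 passing genes per list, and Slc6a20a and Slc6a12) were chosen with earlier results of these data known. Floors of 3 reads cover counting error only. The values of some listed genes are not reported here.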

Additional observations from a re-analysis of the deposited data

Results flagged for a closer look

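Among 28 sets of 5 libraries (7 genes in 4 groups), 3 held a library that lay far from the other 4 by Dixon's criterion for 5 values (a gap of more than 0.71 of the whole range), which chance gives in about 1 of 20 sets. Slc6a19 was 1172 in replicate 1 of the young G3 Tert-/- group, with the next library at 867. Cltrn was 11386 in replicate 1 of the young Tert+/+ group, with the next at 6661, and this library also stood apart over all genes. Slc6a13 was 431 in replicate 1 of the old G3 Tert-/- group, with the next at 487.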

How the results depend on the processing

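No paired analysis was possible because the labels give no batch, litter or day that links libraries of different groups. With age in G3 Tert-/- kidneys, Slc6a19 and Slc6a18 passed under all 10 alternatives that kept each library or dropped both that stood apart, and 1 to 2 of the 7 genes passed when 1 library was left out. The log2 fold change of Slc6a19 was then -1.13 to -0.71. With genotype at 47 weeks 1 gene passed with array weights, and with age in Tert+/+ kidneys 1 passed with array weights and 1 without both libraries that stood apart. With genotype at 7 weeks and in the interaction the count was 0 under every alternative. With age averaged over genotypes 1 to 2 genes passed when 1 library was left out. With array weights 3 of the 7 passed, among them Cltrn. Of all 14630 tested genes 1491 then passed, against 657 without weights.

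Array weights raised the number of all genes passing from 14 to 95 with genotype at 47 weeks, from 95 to 367 with age in Tert+/+ and from 327 to 1007 with age in G3 Tert-/- kidneys. DESeq2 gave 52, 211 and 530, and 661 passed in the last comparison without both libraries that stood apart. With genotype at 7 weeks DESeq2 passed 13 genes and limma 0.

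Of 1043 alternative values of the 35 member effects, 1002 kept their direction and their side of the threshold and 31 changed sign, none of them with a value that passed. With array weights and without both libraries, the signs that changed were those of Slc6a18 with genotype averaged over ages (0.0717 and 0.0631), Slc1a1 at 7 weeks (0.0664 and 0.00371) and Slc6a13 at 47 weeks (0.0287 and 0.0171). Slc6a6 at 47 weeks was -0.0284 without both. Slc6a20a at 47 weeks was -0.0241 with edgeR, -0.0221 with DESeq2, -0.23 with array weights and -0.29 without both. Leaving out 1 library gave -0.0834 to 0.0403 for Slc6a18 averaged over ages. For Slc6a20b it gave -0.00528 to 0.29 with age in Tert+/+, -0.0499 to 0.0689 in G3 Tert-/- and -0.00907 to 0.14 averaged. It gave -0.20 to 0.0583 for Cltrn in the interaction, and -0.0584 to 0.0372 and -0.0320 to 0.0221 for Slc1a1 at 7 weeks and with age averaged. For Slc6a6 it gave -0.0284 to 0.12 at 47 weeks, -0.0155 to 0.19 at 7 weeks and -0.13 to 0.0794 in the interaction. It gave -0.0805 to 0.0171 for Slc6a13 and -0.0165 to 0.18 for Slc5a3 at 47 weeks. For Slc6a20a it gave -0.29 to 0.17 at 47 weeks and -0.00466 to 0.25 with age averaged. The cause of these changes was not tested. The median log2 fold change over all genes was at most 0.01 in size under each scaling.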
